A study of Penicillium oxalicum with 18 samples.

Results

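PDE_09831 and PDE_09832 are 2 genes of the filamentous fungus Penicillium oxalicum that carry consecutive locus tags, 2 of the 9277 rows of the expression table. They were chosen because they were among the most abundant transcripts on bran and cellulose, so their levels on that medium are described and not tested. The 6 groups, of 3 libraries each, were the hap3 deletion, the hap5 deletion and wild type 114-2 (Dhap3, Dhap5 and wild type below), each on 1% bran with 1% microcrystalline cellulose and on 2% glucose. All strains were precultured for 24 h at 30 °C on 2% glucose and then kept for 24 h on the test medium. Nothing in the labels says whether the replicates were separate cultures or how many transformants stand behind each deletion strain, so the p-values cover no more than the variation among these libraries, possibly technical.

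Hap3 and Hap5 are subunits of the Hap complex, which binds CCAAT sequences in fungal promoters and needs its subunits together to bind DNA. Penicillium oxalicum secretes enzymes that break down plant cell walls, and genes for such enzymes are typically held low by glucose and switched on by cellulose and its breakdown products. The study set the Hap deletions against wild type on a repressing and an inducing carbon source. Gene names are not part of the table, and 0 of its 9277 identifiers were found in the reference list of genes, made for another strain. The products and positions of PDE_09831 and PDE_09832 are therefore not given, nor are the deleted genes or lists of cell wall enzymes looked up. Adjoining means that tag numbers follow each other.

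Values are FPKM, or fragments divided by the length of the gene model in kilobases and scaled to the mapped fragments of the library. Library totals ran from 966280 to 1202683 FPKM, the highest being replicate 2 of Dhap3 on glucose, and libraries of the same group correlated across genes at 0.9585 to 0.9875. Sequencing depth is unknown. The labels describe libraries of short tags cut beside CATG sites, while FPKM divides by gene length. FPKM ratios of 1 gene between libraries are free of that division, but the level of PDE_09831 against PDE_09832 is not. With no sequences used, whether the gene models overlap or resemble each other closely enough to share fragments was not tested, and both values are uncertain in that respect.

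On bran and cellulose PDE_09832 was the most abundant transcript of both deletion strains by a wide margin, and PDE_09831 the next. Over the 9 libraries of that medium PDE_09832 averaged 61394.5 FPKM and PDE_09831 15867 FPKM. The next gene by that mean, PDE_07202, averaged 9040.0 FPKM, and PDE_09377 and PDE_04423 followed at 8026 and 6653 FPKM. PDE_09377 ran opposite to the pair by strain, with 466 ± 51.7 FPKM in Dhap3, 484 ± 39.2 FPKM in Dhap5 and 23127 ± 785 FPKM in wild type (SD, n = 3).

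PDE_09832 stood at 82262.41, 78931.67 and 84622.9 FPKM in Dhap3 on bran and cellulose. It stood at 78707.04, 78261.26 and 75494.79 FPKM in Dhap5 and at 32473.08, 18129.9 and 23667.86 FPKM in wild type. It ranked 1 in all 6 deletion libraries, and 1, 3 and 1 in the wild type libraries. The deletion libraries lay close together, and all 6 were above every wild type library, as at 36.5% of the genes tested. The group means were 81939 ± 2859 FPKM in Dhap3, 77488 ± 1740.2 FPKM in Dhap5 and 24757 ± 7233 FPKM in wild type (SD, n = 3). In the deletions PDE_09832 was thus 6.99 and 7.80 times as high as PDE_07202, the highest gene outside the pair. In wild type it was 1.07 times as high as PDE_09377, a margin within its own spread.

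PDE_09831 stood at 21115.81, 21046.4 and 21986.21 FPKM in Dhap3 on bran and cellulose. It stood at 19928.83, 19313.85 and 19836.99 FPKM in Dhap5 and at 8207.39, 4755.16 and 6610.24 FPKM in wild type. It ranked 2 in all deletion libraries, and 7, 12 and 9 in wild type. As for its neighbour, no wild type library came near the deletion libraries. The group means were 21383 ± 524, 19693 ± 332 and 6524 ± 1728 FPKM in Dhap3, Dhap5 and wild type (SD, n = 3).

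**Figure D1:**
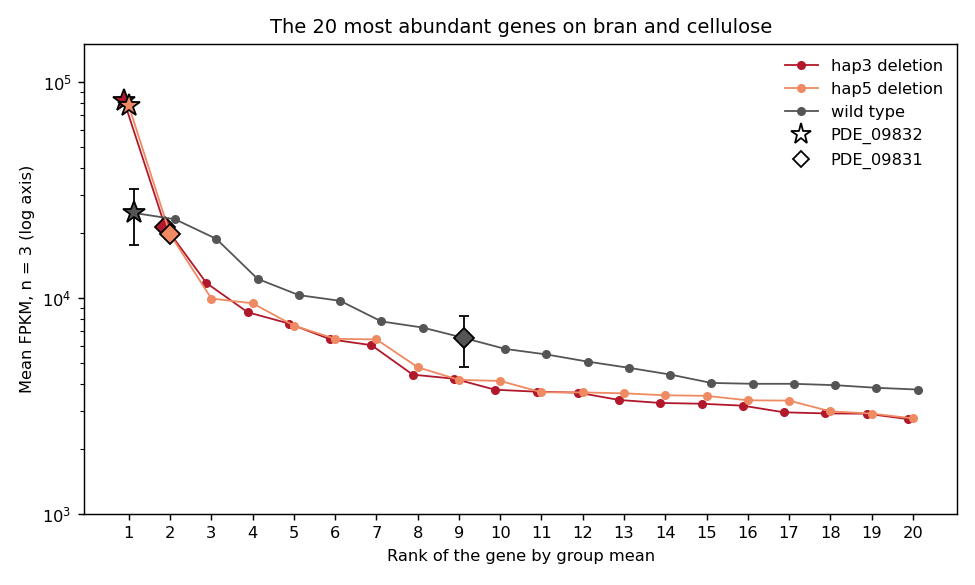
Mean FPKM (log axis) of the 20 most abundant genes on bran and cellulose against their rank, for Dhap3, Dhap5 and wild type. Stars mark PDE_09832 and diamonds PDE_09831, with black bars of 1 SD over 3 libraries; in the deletions the pair takes ranks 1 and 2, and in wild type ranks 1 and 9.

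Together the pair took 10.3% ± 0.309 of the FPKM total in Dhap3 and 9.64% ± 0.0291 in Dhap5 on bran and cellulose, against 3.22% ± 0.908 in wild type (SD, n = 3). On glucose it took 0.174% ± 0.0450, 0.401% ± 0.193 and 0.0870% ± 0.0224 of the total in the same strains. FPKM is scaled to the mapped fragments of each library, so very abundant transcripts can bear on the values of other genes. A share of the FPKM total is not a share of fragments, which is unknown here for want of lengths and counts. In Dhap3 the median log2 change of all genes between bran and cellulose and glucose was 0.316 when libraries were scaled to equal totals without the pair. It was 0.177 with equal totals and the pair kept, and 0.046 in the deposited values. The share of higher genes among those called was 72.78%, 65.53% and 57.87% in the same order. Equal totals moved the median as well, so the step that leaves out the pair is the one between 0.316 and 0.177. The same step lay between 0.072 and -0.046 in Dhap5 and between 0.368 and 0.328 in wild type. The setting that keeps the pair was chosen after seeing the data.

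In every strain the pair was far higher on bran and cellulose than on glucose. The ratio of means for PDE_09832 was 55.0 in Dhap3, 23.6 in Dhap5 and 32.5 in wild type. For PDE_09831 it was 46.3, 22.9 and 32.1. On the log2(FPKM + 1) scale, which understates changes of low genes, PDE_09832 was 5.83, 4.68 and 5.01 higher (SE 0.32 each) and PDE_09831 5.58, 4.64 and 4.99 higher (SE 0.31 each). The smaller ratio in Dhap5 went with a higher level on glucose, while the deletions were close to each other on bran and cellulose. In such bulk libraries fewer expressing cells and less RNA per cell cannot be told apart. These differences use the values that chose the pair and carry no test. Of all genes, 65 in Dhap3, 94 in Dhap5 and 159 in wild type had a larger log2 change than PDE_09832.

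Deletion against wild type on bran and cellulose gave similar ratios for both genes in the deposited values. The ratio of means was 3.31 for PDE_09832 and 3.28 for PDE_09831 in Dhap3, and 3.13 and 3.02 in Dhap5. The log2 differences from wild type were 1.77 and 1.75 in Dhap3 and 1.69 and 1.63 in Dhap5, again without a test. After quantile normalization, which gives genes of the same rank the same value, the difference was 0.41 for PDE_09832 in each deletion and 1.54 for PDE_09831. Both deletions were set against the same 3 wild type libraries. Dhap5 was 0.08 lower than Dhap3 on the log2 scale for PDE_09832 (-0.08) and 0.12 lower for PDE_09831 (-0.12). The libraries of the deletions did not overlap at either gene, with all Dhap5 ones below all Dhap3 ones as at 14.4% of genes, but for PDE_09832 the lowest Dhap3 library, at 78931.67 FPKM, and the highest Dhap5 library, at 78707.04 FPKM, almost touched.

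**Figure D2:**
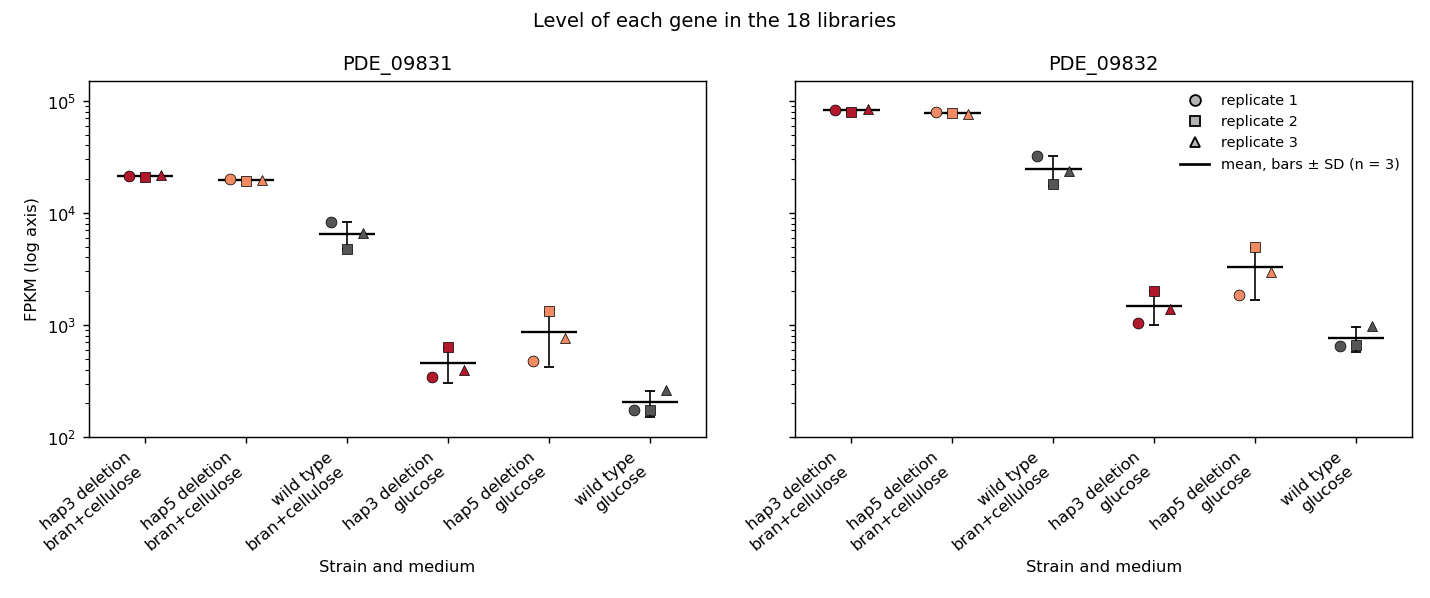
FPKM (log axis) of PDE_09831 (left) and PDE_09832 (right) in each of the 18 libraries by strain and medium, with lines at the group mean and bars of 1 SD (n = 3). Both genes are highest in the deletions on bran and cellulose and lowest in wild type on glucose, and replicate 2 is the highest library of both deletions on glucose.

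Glucose played no part in choosing the genes, so strain differences there were tested. The fit pooled the spread of all 18 libraries, those on bran and cellulose included, so values that chose the pair enter the SE and p given for glucose. For PDE_09832 the pooled SE was 0.32. In fits of the compared groups alone it was 0.40 for Dhap5 against wild type and 0.44 for Dhap5 against Dhap3. For Dhap3 against wild type it was 0.30. For PDE_09832 the SD on the log2 scale was 0.05 in Dhap3 and 0.03 in Dhap5 on bran and cellulose. On glucose it was 0.48 and 0.72. PDE_09832 stood at 1038.9, 2027.45 and 1400.84 FPKM in Dhap3 on glucose, at 1851.99, 5009.86 and 2978.02 FPKM in Dhap5, and at 645.5, 658.44 and 978.29 FPKM in wild type. PDE_09831 stood at 345.38, 640.37 and 398.91 FPKM in Dhap3, at 475.08, 1333.55 and 771.21 FPKM in Dhap5, and at 173.17, 173.41 and 263.68 FPKM in wild type. At both genes all 6 deletion libraries lay above all 3 wild type libraries, as they did at 32.3% of the 8681 genes tested. For PDE_09832 the gap to the lowest Dhap3 library was narrow, at 1038.9 against 978.29 FPKM. By group mean PDE_09832 ranked 149 in Dhap3, 24 in Dhap5 and 272 in wild type, and PDE_09831 ranked 392, 234 and 865.

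In Dhap5 both genes rose on glucose. PDE_09832 averaged 3280.0 ± 1600.4 FPKM in Dhap5 and 761 ± 189 FPKM in wild type (SD, n = 3 each), and its log2 change was 2.02 (SE 0.32, adjusted p = 5.35e-05, limma). PDE_09831 averaged 859.9 ± 436 FPKM in Dhap5 and 203 ± 52.2 FPKM in wild type, and its log2 change was 1.98 (SE 0.31, adjusted p = 5.96e-05, limma). Calls needed an adjusted p under 0.05 with a log2 change of at least 1 in size, which 24.6% of tested genes met here in either direction and 17.6% as higher. Of the calls 71.56% were higher in Dhap5; median-of-ratios scaling gave 60.74% and quantile normalization 54.22%. The median log2 change of all genes was 0.236, well under that of the pair, and 543 genes had a larger change than PDE_09832. Across the alternatives the adjusted p lay between 1.1e-05 and 0.0077 for PDE_09832 and between 9.09e-06 and 0.0092 for PDE_09831. The highest value of each gene came from a fit of Dhap5 and wild type on glucose alone, with SE 0.40 and 0.41.

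In Dhap3, set against the same wild type libraries, the changes on glucose lay at the limit for a call. PDE_09831 averaged 462 ± 157 FPKM in Dhap3, a log2 change of 1.16 from wild type (SE 0.31, adjusted p = 0.00516, limma), and it was called. PDE_09832 averaged 1489 ± 500.1 FPKM, with a log2 change of 0.94 from wild type (SE 0.32, adjusted p = 0.0186, limma), short of the minimum change for a call. Called genes made up 24.1% of those tested (15.3% as higher), 63.65% of them higher in Dhap3, or 52.12% after quantile normalization. Without replicate 2 of Dhap3 PDE_09831 had a change of 0.89 (adjusted p = 0.0277, limma) and was no longer called, while without replicate 1 of Dhap3 or replicate 3 of wild type PDE_09832 had changes of 1.17 and 1.14 and was called. Across the alternatives the adjusted p lay between 0.0012 and 0.028 for PDE_09831 and between 0.0067 and 0.085 for PDE_09832. It was 0.0243 and 0.05005 in a fit of the compared groups alone (limma).

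Set directly against each other on glucose, the deletions overlapped at both genes. PDE_09832 was 1.08 higher on the log2 scale in Dhap5 than in Dhap3 (SE 0.32, adjusted p = 0.0274, limma), where 4.01% of genes were called, 2.97% as higher. PDE_09831 was 0.82 higher (SE 0.31, adjusted p = 0.0802, limma) and was not called. The PDE_09832 call depended on single libraries: its change was 0.71 (adjusted p = 0.126) without replicate 2 of Dhap5 and 0.84 (adjusted p = 0.0842) without replicate 1 of Dhap3 by limma. It was also not called without replicate 3 of Dhap5 (adjusted p = 0.0706, limma), without replicate 3 of Dhap3 (adjusted p = 0.0510, limma), after median-of-ratios scaling (0.97), or in a fit of these 6 libraries alone (adjusted p = 0.253, limma). PDE_09831 was called without replicate 2 of Dhap3 (1.08) and without replicate 1 of Dhap5 (1.19). The adjusted p lay between 0.0048 and 0.253 for PDE_09832 and between 0.0124 and 0.354 for PDE_09831 across the alternatives.

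By group mean the order of the levels was the same for both genes: Dhap3, Dhap5 and wild type on bran and cellulose, then Dhap5, Dhap3 and wild type on glucose. The libraries of neighbouring groups in that order overlapped at 1 place for each gene, between Dhap5 and Dhap3 on glucose. The share of all genes with groups as separate as these was not computed. The order also uses the bran and cellulose values that chose the pair, so it is a description only.

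Replicates lay close together in some groups and far apart in others. The coefficient of variation of PDE_09832 on bran and cellulose was 3.49% in Dhap3 and 2.25% in Dhap5, against 29.2% in wild type. On glucose it was 33.6% in Dhap3, 48.8% in Dhap5 and 24.8% in wild type. PDE_09831 gave 2.45%, 1.68% and 26.5% with bran and cellulose, and with glucose 34.0%, 50.7% and 25.7%. Genes with a group mean of at least 100 FPKM had a median coefficient of variation of 5.58%, 6.14% and 6.42% in the strains on bran and cellulose, and of 13.9%, 7.63% and 8.06% for glucose. In wild type on bran and cellulose 97.0% of these genes varied less than PDE_09832, and in Dhap5 on glucose 99.2% did. On bran and cellulose 27.2% of them varied less than PDE_09832 in Dhap3 and 11.7% in Dhap5. For PDE_09831 the shares were 14.2% and 6.4%. The pair therefore varied less than the median abundant gene in the deletions on bran and cellulose. In the other 4 groups it was among the more variable abundant genes. This comparison was added after the values were seen and carries no test.

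The 2 genes moved together from library to library. The ratio of PDE_09831 to PDE_09832 on bran and cellulose was 0.261 ± 0.00509 in Dhap3, 0.254 ± 0.00804 in Dhap5 and 0.265 ± 0.0134 in wild type (SD, n = 3). On glucose it was 0.311 ± 0.0242, 0.261 ± 0.00502 and 0.267 ± 0.00326 in the same strains. The level of PDE_09832 ran from 645.5 to 84622.9 FPKM over the libraries, while the ratio ran only from 0.247 to 0.332. The 3 highest ratios of the 18 were those of Dhap3 on glucose, at 0.332, 0.316 and 0.285, followed by 0.279 in replicate 3 of wild type on bran and cellulose. Replicate 2 of Dhap3 on glucose, the library with the highest FPKM total, had the middle ratio of the 3. On glucose the mean log2 ratio of the 6 deletion libraries was 0.09 above that of the 3 wild type libraries, which an exact two-sided permutation test did not separate (p = 0.476, where 84 arrangements allow 0.0238 at the least). The difference from wild type was 0.22 in Dhap3 and -0.04 in Dhap5, and that between the deletions was not tested. The Dhap3 ratio was singled out after the values were seen and is given as a description, with no test.

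**Figure D3:**
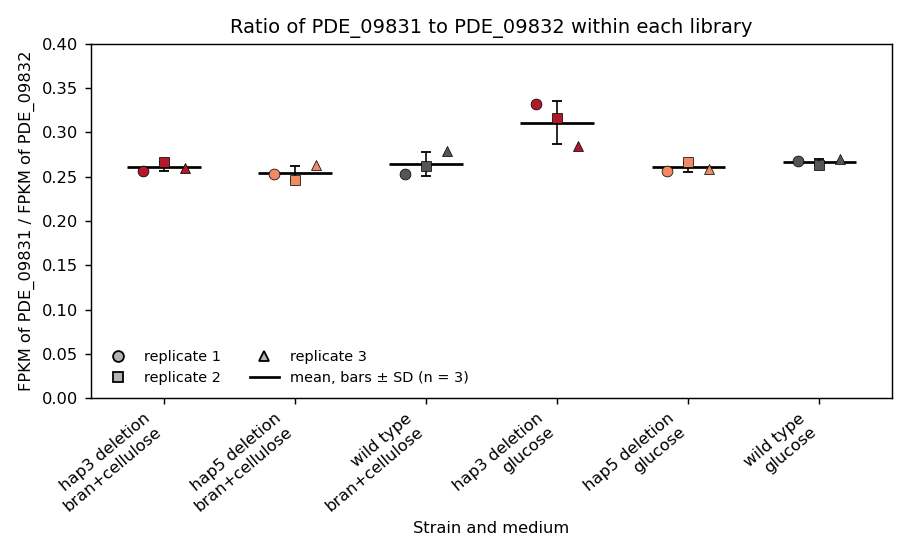
Ratio of the FPKM of PDE_09831 to that of PDE_09832 in each of the 18 libraries by strain and medium, with lines at the group mean and bars of 1 SD (n = 3). Ratios lie between 0.247 and 0.279 in 5 groups and between 0.285 and 0.332 in Dhap3 on glucose.

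Deviations from the group mean agreed closely as well. Replicate 2 of Dhap5 on glucose was 0.73 above its group mean on the log2 scale for PDE_09832 and 0.76 above for PDE_09831, and replicate 1 was below by 0.71 and 0.73 (-0.71 and -0.73). In wild type on bran and cellulose replicate 1 was 0.43 and 0.37 above its group mean, and replicate 2 was below (-0.41 and -0.42). Pearson's r between the deviations of the 2 genes was 0.989 over the 18 libraries, 0.992 over the 9 on glucose and 0.978 over the 9 on bran and cellulose. Both genes of a library share its depth and scaling, so these correlations describe the libraries and carry no p. Over the 18 libraries the correlation of levels also carries the contrast between media, which chose the pair, so pairs of adjoining tags were compared on the 9 glucose libraries alone. Of 7539 such pairs with both genes tested, 99 had a steadier log2 ratio on glucose than PDE_09831 and PDE_09832 (SD 0.132, against a median of 0.534), and 47 had a higher correlation than their r of 0.991. Among the 383 with both genes at a glucose mean of at least 100 FPKM, 16 had a steadier ratio and 12 a higher correlation.

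PDE_09830, the tag just below the pair, also followed both carbon source and strain, at a much lower level. It stood at 1441.18, 1247.79 and 1067.75 FPKM in Dhap3 on bran and cellulose, at 990.33, 1005.57 and 992.12 FPKM in Dhap5 and at 99.6, 48.27 and 64.55 FPKM in wild type. On glucose it stood at 92.56, 87.82 and 92.73 FPKM in Dhap3, at 79.01, 89.78 and 67.35 FPKM in Dhap5 and at 6.36, 6.25 and 5.57 FPKM in wild type. The deletion libraries on glucose thus reached the level of the wild type libraries on bran and cellulose, which was not so for the pair. PDE_09830 was chosen by its tag number, so all its comparisons were tested.

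On bran and cellulose PDE_09830 was higher than in wild type by a log2 change of 4.18 in Dhap3 (SE 0.19, adjusted p = 2.93e-11, limma) and 3.86 in Dhap5 (SE 0.19, adjusted p = 7.55e-11, limma). On glucose it was higher than in wild type by 3.71 in Dhap3 (adjusted p = 2.53e-10, limma) and 3.49 in Dhap5 (adjusted p = 4.2e-10, limma). Between media it was higher on bran and cellulose by 3.76 in Dhap3, 3.65 in Dhap5 and 3.29 in wild type (adjusted p = 1.15e-10, 2.03e-10 and 3.4e-10, limma). Its level as a percentage of PDE_09831 was between 4.86% and 6.83% in the deletions on bran and cellulose, against 0.977% to 1.21% in wild type. On glucose it was between 6.73% and 26.8% in the deletions and between 2.11% and 3.67% in wild type. Within groups it followed the pair loosely, with an r of deviations of 0.346 with PDE_09831 and 0.377 with PDE_09832 over the 18 libraries.

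Of the 10 tags with a row on each side of the pair, 19 of 20 stayed under 400 FPKM in every library, and the highest library of any but PDE_09830 was at 214.63 FPKM. In that window 2 tag numbers have no row. On glucose 5 of the 20 (25.0%) were called in Dhap3, against 24.1% of all genes, and 5 (25.0%) in Dhap5, against 24.6%. In each deletion 3 of them were higher and 2 lower than in wild type. For bran and cellulose 7 (35.0%) were called in Dhap3, against 30.1% of all genes, and 6 (30.0%) in Dhap5, against 29.6%. There 3 were higher and 4 lower in Dhap3, and 2 higher and 4 lower in Dhap5. Between the deletions 0 on glucose and 1 on bran and cellulose were called by limma (1 and 4 at an unadjusted p under 0.05), against 4.01% and 0.472% of all genes. Between media 5 (25.0%) were called in Dhap3, 3 (15.0%) in Dhap5 and 9 (45.0%) in wild type, against 32.2%, 24.9% and 37.2% of all genes. The shares called thus lay near those of the whole table in the comparisons of deletion with wild type. The interaction term of deletion and medium was called by limma at 2 of the 20 tags (10%) for Dhap3 and 5 (25.0%) for Dhap5, against 30.1% and 30.3% of all genes. Like the pair, PDE_09830 had all 6 deletion libraries above all 3 wild type libraries on both media, and so had PDE_09822, PDE_09824 and PDE_09825 at lower levels. Over all tested genes this held at 32.3% on glucose and 36.5% on bran and cellulose. The share for both media at once was not computed, so these tags are not set apart from the whole table. PDE_09824, named here after its values were seen, averaged 87.2 ± 4.21, 77.1 ± 9.68 and 58.3 ± 3.05 FPKM in Dhap3, Dhap5 and wild type on bran and cellulose, and 33.9 ± 4.01, 38.4 ± 2.39 and 16.2 ± 1.24 FPKM on glucose (SD, n = 3). PDE_09836, also named after its values were seen, was called lower in both deletions on both media. It averaged 16.4 ± 2.32, 16.4 ± 2.48 and 49.5 ± 2.51 FPKM in the same strains on bran and cellulose. On glucose PDE_09836 averaged 18.1 ± 0.966, 17.8 ± 0.846 and 48.7 ± 0.441 FPKM (SD, n = 3).

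PDE_09829, the tag below PDE_09830, stood at 103 ± 6.29 FPKM in Dhap3 and 107 ± 19.8 FPKM in Dhap5 on glucose, against 25.6 ± 2.37 FPKM in wild type (SD, n = 3). Its log2 changes were 1.98 and 2.02 (SE 0.105 each, adjusted p = 4.2e-10 and 2.9e-10, limma). On bran and cellulose it averaged 106 ± 5.65, 101 ± 2.06 and 116 ± 1.95 FPKM in the same strains and was not called in either deletion. PDE_09828 fell in both deletions, to 48.9 ± 17.2 and 50.2 ± 4.84 FPKM on glucose in Dhap3 and Dhap5, against 179 ± 12.6 FPKM in wild type, with log2 changes of -1.91 and -1.82 (adjusted p = 2e-07 and 3.21e-07, limma). Its changes on bran and cellulose were -1.18 and -1.20 (adjusted p = 2.56e-05 and 2.28e-05, limma).

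The tag just above PDE_09832 has no row, so the level there is not known. PDE_09834, the next tag with a row, was at 5.33, 4.86 and 3.24 FPKM in Dhap3 on bran and cellulose, at 0, 0.56 and 0.01 FPKM in Dhap5 and at 18.26, 12.36 and 7.93 FPKM in wild type. It was listed at 0 in all deletion libraries on glucose and at 0, 0 and 2.6 FPKM in wild type. On bran and cellulose it was lower than in wild type in Dhap3 (-1.29, adjusted p = 0.0109, limma) and in Dhap5 (-3.50, adjusted p = 1.72e-06, limma), opposite to the pair. The Dhap3 call was lost with a pseudocount of 0.1 (adjusted p = 0.224, limma) and without replicate 1 of wild type (adjusted p = 0.0577, limma). Between the deletions it was lower in Dhap5 (-2.21, adjusted p = 0.0104, limma), a call lost without replicate 1 or 2 of Dhap3 or replicate 3 of Dhap5. PDE_09835 was called in 0 of the 9 comparisons; its changes on glucose were 0.58 and 0.52 in Dhap3 and Dhap5 (adjusted p = 0.000663 and 0.00147, limma), under the minimum for a call.

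**Figure D4:**
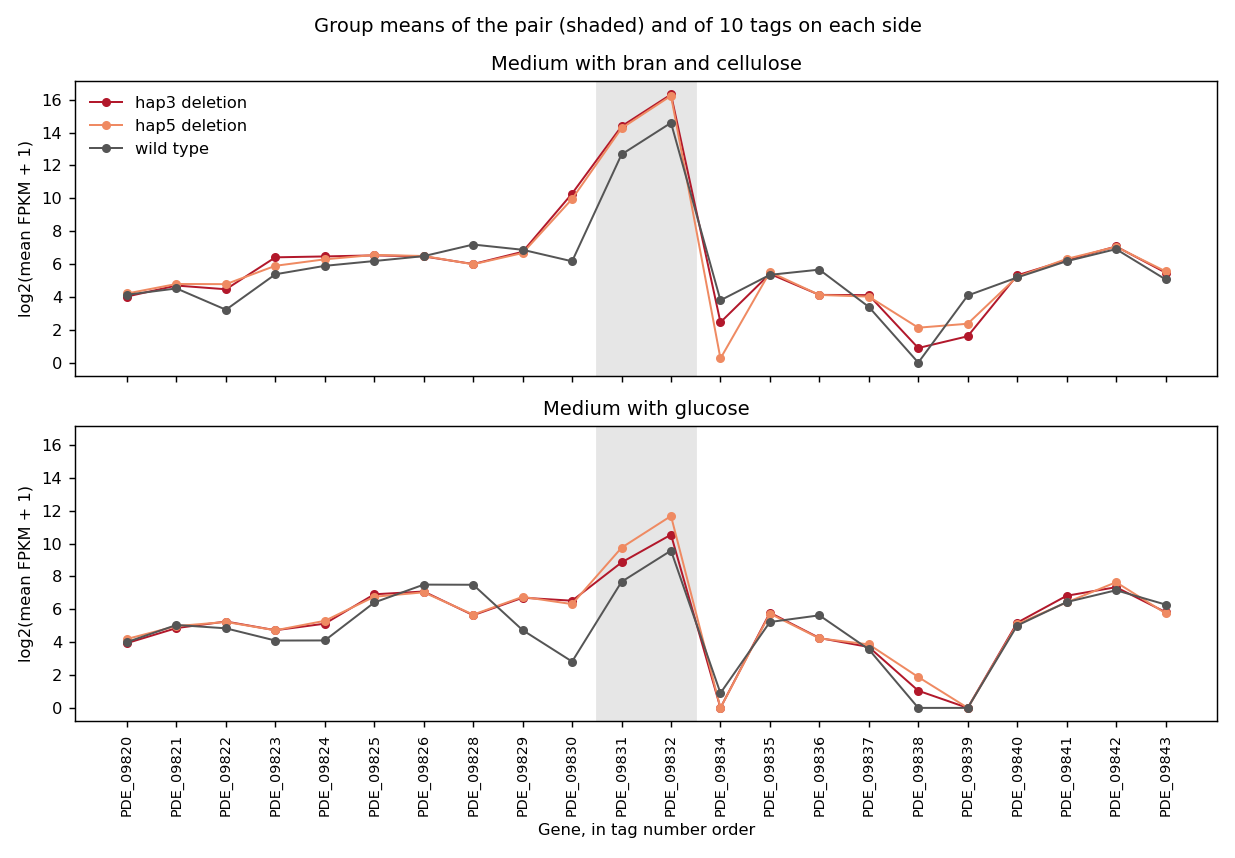
log2(mean FPKM + 1) of PDE_09831 and PDE_09832 (shaded) and of the 10 tags with a row on each side, in tag number order, on bran and cellulose (top) and glucose (bottom), with 1 line per strain. PDE_09830 has higher means and PDE_09828 and PDE_09836 lower means in both deletions on both media, and PDE_09834 lies far below the pair in every strain.

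Over the 18 libraries each gene of the pair was the closest match of the other among 8681 tested genes (Pearson's r of 0.999 on the log2(FPKM + 1) scale). The next 4 genes were the same for both: PDE_01718, PDE_03882, PDE_09598 and PDE_09492, with r between 0.9928 and 0.9939 for PDE_09831 and between 0.9931 and 0.9946 for PDE_09832. The 18 libraries share their media, strains and scaling, and they include the bran and cellulose values that chose the pair. These correlations are therefore a description and carry no p. By Spearman's correlation 1 of the 5 closest genes was shared with these lists for each member. All 4 were much less abundant: on bran and cellulose PDE_03882 averaged 501 ± 8.01 FPKM in Dhap3, 514 ± 19.7 FPKM in Dhap5 and 94.8 ± 27.4 FPKM in wild type (SD, n = 3).

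PDE_01718 followed the pair within groups on glucose and less closely on bran and cellulose. It stood at 6.43, 10.39 and 6.53 FPKM in Dhap3 on glucose, at 11.31, 23.51 and 16.71 FPKM in Dhap5 and at 3.43, 3.49 and 6.68 FPKM in wild type. As for the pair, replicate 2 was highest in both deletions and replicate 3 in wild type. On bran and cellulose it stood at 305.47, 289.34 and 228.93 FPKM in Dhap3, where replicate 3 was its lowest library and the highest of the pair. It stood at 223.21, 241.3 and 203.48 FPKM in Dhap5 and at 161.41, 104.64 and 136.84 FPKM in wild type, where replicate 1 was highest and replicate 2 lowest as for the pair. Over the 18 libraries the r of its deviations from group means was 0.911 with PDE_09831 and 0.899 with PDE_09832, where the other 3 genes gave between 0.670 and 0.764. These genes were picked for their correlation with the pair over the same 18 libraries, so such agreement is in part a result of the choice. PDE_09830, which adjoins the pair, came at place 851 in likeness to PDE_09831 and 894 to PDE_09832, with r of 0.867 and 0.860.

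**Figure D5:**
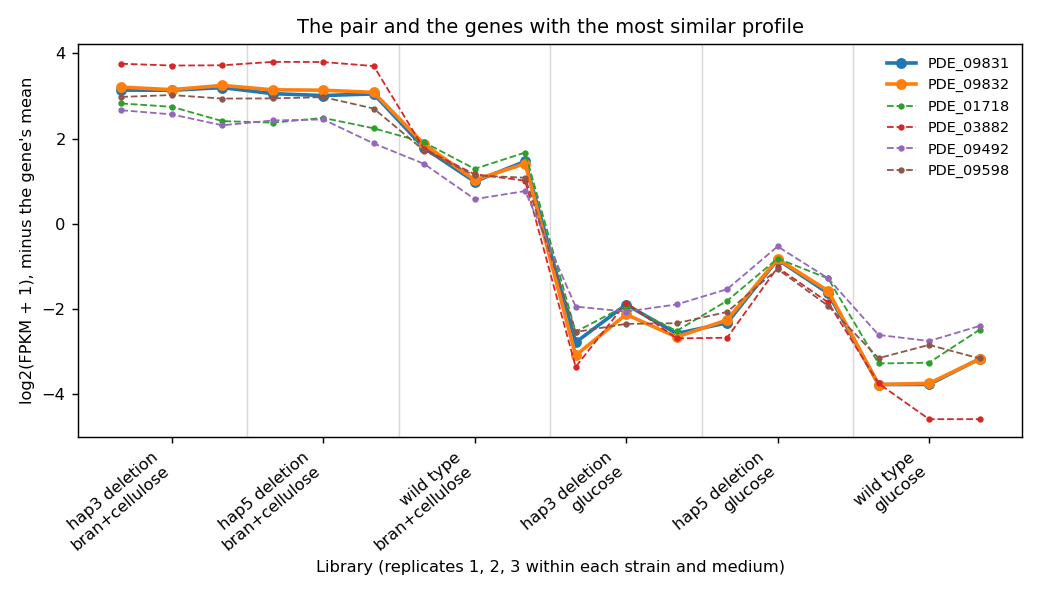
log2(FPKM + 1) less the gene's own mean over the 18 libraries, for PDE_09831, PDE_09832 and the 4 genes with the highest correlation to both, with libraries in order of strain and medium. The lines of the pair almost coincide, and all 6 genes are lowest in wild type on glucose by group mean.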

How the data were processed

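Deposited values were FPKM, given by the authors in 1 table to 2 decimals, as read from its columns. No source used here names the aligner, quantifier, strand handling, build or annotation. Strain, medium and replicate number in the column names gave each column's sample; the bran and cellulose columns carry another abbreviation than the titles and were assigned by elimination. All 18 were used and 0 stayed unmapped. A search of low values for steps of whole reads, over genes at 0 in at least 6 libraries, gathered 2.8% to 11.3% of genes within 0.02 log2 units, so depth was not recovered.

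Testing used log2(FPKM + 1) of the 8681 genes reaching 1 FPKM in 3 or more libraries, both members among them, in limma 3.58.1 (R 4.3.3) with 6 group means, an intensity trend and Benjamini-Hochberg adjustment over all genes. Exact permutation used scipy 1.17.1. The fit was tested on simulated data. Members, lists and tests were chosen with earlier results of these data known. Named genes were the members, tags within 3 of them, up to 6 called tags among the 10 on each side, the 5 most correlated genes per member and the 5 most abundant on bran and cellulose; comparisons with all adjoining pairs and of the coefficient of variation were added after values were seen. Other settings tried were a 0.1 pseudocount, unfiltered genes, a 5 FPKM minimum, scaling by median-of-ratios, by quantiles, to equal totals or without the pair, a replicate block, fitting compared groups alone, Spearman's correlation and omitting each library.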

Additional observations from a re-analysis of the deposited data

Results flagged for a closer look

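Among the named neighbouring tags 4 had a called interaction term in the same limma fit, given as the log2 effect of a deletion on bran and cellulose minus that on glucose. Such calls were made at 10% of the 20 neighbours for Dhap3 and 25.0% for Dhap5, against 30.1% and 30.3% of all genes. PDE_09829 gave -2.10 in Dhap3 and -2.21 in Dhap5 (adjusted p = 1.26e-08 and 6.61e-09, limma): it was higher in the deletions on glucose and not called on bran and cellulose. PDE_09834 gave -2.89 in Dhap5 (adjusted p = 0.000498, limma), with 1 of the Dhap5 and wild type glucose libraries above 0, at 2.6 FPKM. The term of PDE_09834 thus largely restates its change of -3.50 from wild type on bran and cellulose. PDE_09839 gave -2.36 and -1.64 in Dhap3 and Dhap5 (adjusted p = 0.00032 and 0.00515, limma). It was listed at 0 in all 9 glucose libraries, so these terms restate its effects on bran and cellulose and do not show that the effect differs between media. It stood at 1.39 to 2.37 FPKM in Dhap3, 2.86 to 6.28 FPKM in Dhap5 and 7.4 to 24.01 FPKM in wild type on bran and cellulose. PDE_09822 gave 1.17 in Dhap5 (adjusted p = 6.75e-06, limma). PDE_09830, next to the pair, gave 0.47 and 0.37 (adjusted p = 0.147 and 0.255, limma) and was not called. The same term was not computed as a result for PDE_09831 and PDE_09832, since it uses the values that chose them.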

How the results depend on the processing

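On glucose no direction of PDE_09831 or PDE_09832 turned in any alternative, and Dhap5 calls against wild type held in all of them. Leaving out 1 library gave 0.894 to 1.356 for PDE_09831 and 0.692 to 1.174 for PDE_09832 in Dhap3 against wild type. It gave 0.442 to 1.186 and 0.711 to 1.429 in Dhap5 against Dhap3. In that comparison PDE_09832 was not called after median-of-ratios scaling (0.969) or in a fit of the compared groups (1.075), where 135 genes were called in place of 348. On bran and cellulose the same comparison called 41 genes, 18 in a fit of the compared groups, 25 without Dhap3 replicate 2, 26 without Dhap3 replicate 1 and at most 54 without any 1 library. Quantile normalization gives the top ranks of all libraries the same values. PDE_09832 then differed from wild type on bran and cellulose by 0.41 in each deletion, and between media by 4.617 and 3.244 in Dhap3 and Dhap5. Both genes differed by 0 between the deletions there. The replicate block left the calls of the pair as they were, with 1.155 and 0.941 for PDE_09831 and PDE_09832 in Dhap3 on glucose and 350 genes called between the deletions. Over all tested genes the deviations of same-numbered libraries correlated weakly at most (r from -0.122 to 0.202). For PDE_09832 on glucose replicates 1, 2 and 3 deviated by -0.465, 0.499 and -0.034 in Dhap3. In Dhap5 they deviated by -0.707, 0.728 and -0.022, and in wild type by -0.209, -0.181 and 0.39. The labels do not say whether replicate numbers mark shared cultures. Interactions were not run in fits of the compared groups. Without counts, counting error is not known.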
